A study of Mus musculus with 172 samples.

Results

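Potassium channel genes were taken as every gene listed in the cortex values whose symbol begins with Kcn, followed by small letters and a digit. The rule found 80 genes among the 14896 listed in cortex, and 30 of them were also listed in liver. The data are RNA-seq of cerebral cortex from male mice aged 11 to 14 weeks, either left undisturbed (Ctr) or kept awake by gentle handling for the first 6 h of the light phase (sleep deprivation, SD), and all were killed 6 h after light onset. RNA of the mice of a line and condition was pooled, so that each library is 1 pool. Both conditions hold 39 pools, namely 33 BXD/RwwJ recombinant inbred lines, the parents C57BL/6J and DBA/2J in 2 collections each, and both of their F1 crosses (BD-F1 and DB-F1). Each of the 39 is called a line below. The labels name no transgene and no drug, and SD and Ctr mice of a line share their genotype. Mice of both conditions were under isoflurane anesthesia when they were killed. For BXD79, BXD85 and BXD101 fewer mice were pooled. A pool gives no spread between mice, and the standard deviation over pools also holds the genetic differences between lines. Because whole cortex was used, fewer cells of a type and less RNA per cell cannot be told apart in any value below.

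Potassium channels let potassium leave or enter the cell and so set the resting potential, the shape of the action potential and the rate at which neurons can fire. Voltage-gated channels open on depolarization and end the spike, inward rectifiers and two-pore channels hold the membrane near rest, and calcium- or sodium-activated channels follow activity and slow firing. Modifier subunits form no channel by themselves but alter Kv2 channels, and auxiliary subunits change the gating or the transport of the pore-forming ones. In cortex these genes are known for shaping the slow alternation of firing and silence of neurons in sleep. By symbol, the 80 genes comprised 27 voltage-gated, 9 modifier, 7 calcium- or sodium-activated, 13 inward rectifier, 10 two-pore and 12 auxiliary genes, and 2 noncoding transcripts (Kcnd3os and Kcnq1ot1). Kcnu1 (Slo3) was counted with the calcium- or sodium-activated genes by its symbol alone, and the class name does not describe it.

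Cortex libraries held between 18995492 and 28998853 reads in Ctr (median 22170272) and between 19025159 and 28685060 in SD (median 22713295). Mean reads per library of a member ran from under 100 (17 members) to over 1000 (34 members). For the 17 members under 100 reads, the standard deviation of the change over lines was a median of 1.17 times what counting error alone gives, against 3.51 times for the 34 members over 1000 reads. Among the 17 it ran from 0.957 to 2.19 times, the highest being Kcng3. One library stood apart. The Ctr pool of BXD90 held the lowest of the 39 Ctr values for 24 of the 80 members and for 19.6% of all genes. Next came the Ctr pool of BXD56, lowest for 12 members and 7.51% of all genes, while no other Ctr pool was lowest for more than 5 members. These pools stood at the high end as well. BXD90 Ctr was highest for 3 members and 17.0% of all genes, and BXD56 Ctr for 7 members and 11.5% of all genes. In SD it was BXD55 that was lowest most often, for 14 members, and the share over all genes is not given for the SD pools. BXD90 Ctr also had the highest scaling factor of the 39 Ctr libraries (0.08 on the log2 scale), with 20156560 reads. What set these libraries apart was not tested, and results that rest on BXD90 are given with and without it.

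Which channels the cortex of undisturbed mice used most was read from the level per kb of exon, over the 77 members with a length in the mm9 annotation. Kcna2 (Kv1.2, a channel of axons) stood first with 134 CPM per kb. The auxiliary gene Kcnab2, whose product binds Kv1 channels, was at 90.4 CPM per kb. Also among the 5 highest were Kcnj9 (GIRK3, a G-protein-gated rectifier) with 64.1 and Kcnh3 (an ether-a-go-go-like channel of the forebrain) with 58.6 CPM per kb. On the log2 CPM scale, without length, these 4 genes averaged 8.85 ± 0.14 (Kcna2), 8.98 ± 0.07 (Kcnab2), 7.71 ± 0.11 (Kcnj9) and 7.76 ± 0.11 (Kcnh3; standard deviation over 39 Ctr pools). Per kb, the ranges over the Ctr pools of Kcnj9 and Kcnh3 overlapped, and their difference within pools was not tested. Those of Kcna2 and Kcnab2 overlapped through the BXD90 pool of Kcna2 alone, and those of Kcnab2 and Kcnj9 did not overlap. The lengths come from another annotation than the authors' own, which could move places in this order. At the other end stood Kcnj5, Kcnq1, Kcnmb1 and Kcnk5, each below 0.25 CPM per kb. Together the 80 members made up 6541 ± 281 CPM in Ctr and 6638 ± 227 CPM in SD, higher in SD in 25 of 39 lines. The sum over all genes was 992712 CPM in Ctr and 1009044 CPM in SD, higher in SD in 37 of 39 lines.

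**Figure D1:**
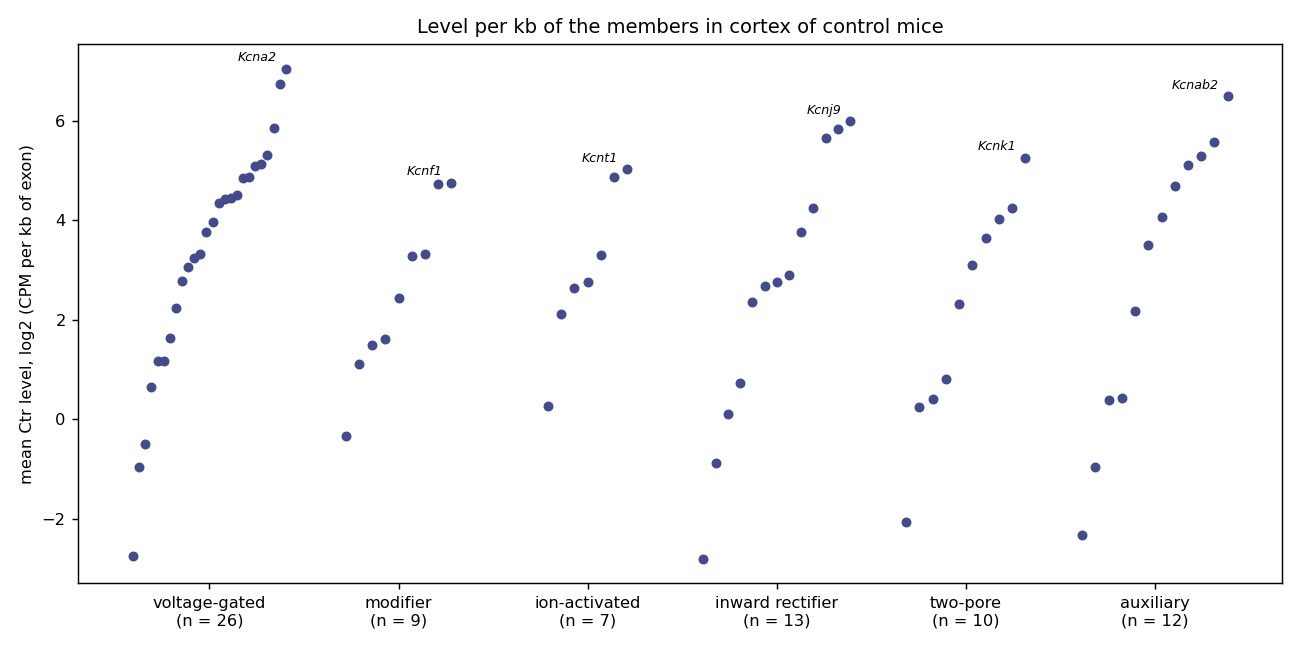
Mean level of 77 members in the 39 Ctr cortex pools, in log2 CPM per kb of exon (y axis), by class (x axis); each point is 1 gene and the highest of a class is named. Kcna2 leads, and every class spans from low to high levels.

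After 6 h of SD, 22 members were higher and 26 lower than in Ctr, and 32 did not pass the test (limma with Benjamini-Hochberg adjustment over all genes, adjusted p under 0.05). Called members were 60.0% of the 80, against 68.4% of all genes. The rises were 27.5% of members and 33.0% of all genes, and the falls 32.5% and 35.4%. The share called was thus below that of all genes. The changes were of the usual size as well, with a median absolute log2 fold change of 0.14 against 0.13 over all genes and a median of -0.02 against -0.01. No member had Ctr and SD ranges that did not overlap, which 1.40% of all genes had. Called with the same sign in at least 37 of 39 lines were 17 of the 80 members, 9 rises and 8 falls, and 26.2% of all genes.

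**Figure D2:**
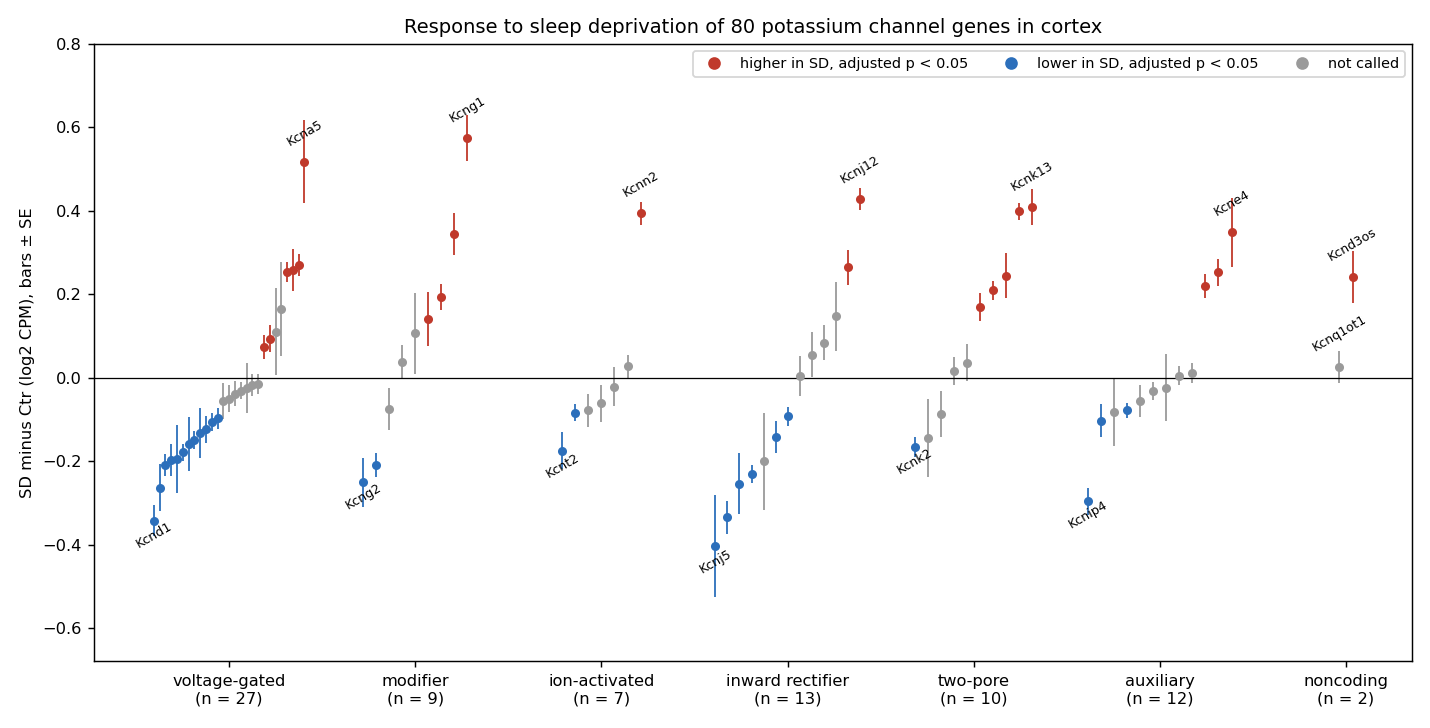
SD minus Ctr in log2 CPM (y axis) for the 80 members by class (x axis), each point 1 gene with its SE from limma, 39 pools per condition. Red points are higher and blue points lower in SD with an adjusted p under 0.05, grey points are not called, and the lowest and highest gene of a class are named (ion-activated stands for calcium- or sodium-activated); the two-pore and modifier classes hold mostly red and grey points.

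The calls are given by class as counts, and differences between classes were not tested. Of the 10 two-pore genes 5 rose and 1 fell, with a median log2 fold change of 0.10. Among the 9 modifier genes 4 rose and 2 fell (median 0.11). The 27 voltage-gated genes had 6 rises and 12 falls (median -0.05), and the 13 inward rectifiers 2 rises and 6 falls (median -0.09). Of the 12 auxiliary genes 3 rose and 3 fell (median -0.03), and of the 7 calcium- or sodium-activated genes 1 rose and 2 fell (median -0.06). The summed CPM of the two-pore genes went from 251 ± 10.4 in Ctr to 283 ± 10.1 in SD and was higher in SD in 39 of 39 lines. For the modifier genes it went from 358 ± 25.3 to 411 ± 35.2 CPM, again higher in 39 of 39 lines. The inward rectifiers had a sum of 864 ± 44.5 CPM in Ctr and 820.3 ± 40.8 in SD, and it was higher in SD in 4 of 39 lines. For the voltage-gated genes the sum went against the balance of calls, from 3377 ± 206 CPM in Ctr to 3447 ± 169 in SD, higher in 28 of 39 lines. It went from 1164 ± 38.5 to 1160.2 ± 44.5 CPM in the auxiliary genes (higher in 20 lines) and from 509.6 ± 27.7 to 499 ± 19.3 in the calcium- or sodium-activated genes (higher in 10 lines). For all genes together the sum went from 992712 ± 10920 CPM in Ctr to 1009044 ± 9602 in SD, higher in 37 of 39 lines. A small rise of a class sum, as in the voltage-gated genes, is therefore not particular to that class. The class sums are dominated by their most abundant genes and are descriptions, with no test.

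Of the 9 silent subunits, which join Kv2 channels, 4 rose and 2 fell. Kcng1 (Kv6.1, a silent subunit) had the largest rise of all members. Its Ctr values lay between 2.71 and 3.83 log2 CPM (median 3.28) and its SD values between 3.36 and 4.19 (median 3.89). The groups overlapped, yet the SD pool was above the Ctr pool in 39 of 39 lines. The log2 fold change was 0.58 ± 0.056 (SE; adjusted p = 2.0e-15), a gain of 49.0%. Kcnf1 (Kv5.1, another silent subunit) went from a median of 7.05 log2 CPM (6.56 to 7.34) in Ctr to 7.43 (6.77 to 7.76) in SD and was higher in 39 of 39 lines, by 0.34 ± 0.050 (adjusted p = 5.1e-09). A further silent subunit, Kcnv1 (Kv8.1), rose by 0.19, with 35 of 39 lines higher, and Kcng4 (Kv6.4) by 0.14 (adjusted p = 0.046), a call that 5 of 13 alternatives did not make. Kcns2 (Kv9.2) fell by 0.21 on the log2 scale and was higher in SD in 3 lines only. Kcng2 fell by 0.25, at a mean of under 100 reads per library. Kcnb2 (Kv2.2) was lower by a log2 fold change of -0.13 (adjusted p = 0.043), a call that was lost in 5 of 13 alternatives, that with the 33 BXD/RwwJ lines alone among them. Amigo1, which encodes a membrane protein that accompanies Kv2 channels, showed a log2 fold change of 0.02 (adjusted p = 0.335).

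Genes of the A-type current, which delays the spike and filters dendritic input, went in both directions. Of the Kv4 genes, Kcnd3 (Kv4.3) rose and Kcnd2 (Kv4.2) and Kcnd1 (Kv4.1) fell. Kcnd3 had Ctr values of 6.28 to 6.80 log2 CPM (median 6.60) and SD values of 6.60 to 7.06 (median 6.86), so the lowest SD pool was at the middle of the Ctr pools. It was higher in 38 of 39 lines, by 0.27 ± 0.026 (adjusted p = 7.0e-16). Kcnd2 lay between 6.50 and 7.09 in Ctr (median 6.81) and between 6.49 and 6.74 in SD (median 6.63). In 37 of 39 lines it was lower after SD, with a log2 fold change of -0.18 ± 0.0215 (adjusted p = 8.4e-12). The weakly expressed Kcnd1, at a mean of 171 reads per library, had the largest fall of the 8 named ones. It went from a median of 3.07 (2.65 to 3.42) to 2.75 (2.34 to 3.01), a log2 fold change of -0.34 ± 0.038 (adjusted p = 2.8e-13), with 2 lines higher in SD.

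The KChIP genes, calcium-binding auxiliary subunits of Kv4 channels, were split likewise. Kcnip2 ran from 6.51 to 7.33 log2 CPM in Ctr (median 7.12) and from 7.12 to 7.53 in SD (median 7.31), and 38 of 39 lines were higher in SD. Its log2 fold change was 0.22 ± 0.029 (adjusted p = 2.2e-10). Kcnip3 (calsenilin) rose by 0.25 in 35 lines. Kcnip4, in contrast, went from a median of 6.15 (5.53 to 6.27) to 5.83 (5.17 to 5.99). It was lower in 37 lines, by a log2 fold change of -0.30 ± 0.032 (adjusted p = 1.6e-13), and the difference for Kcnip1 was 0.01 (adjusted p = 0.67). Dpp10 and Dpp6, which encode the other partners of Kv4 channels, both fell, Dpp10 by 0.21 on the log2 scale in 39 of 39 lines (adjusted p = 7.7e-18) and Dpp6 by 0.047 (adjusted p = 0.0029).

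**Figure D3:**
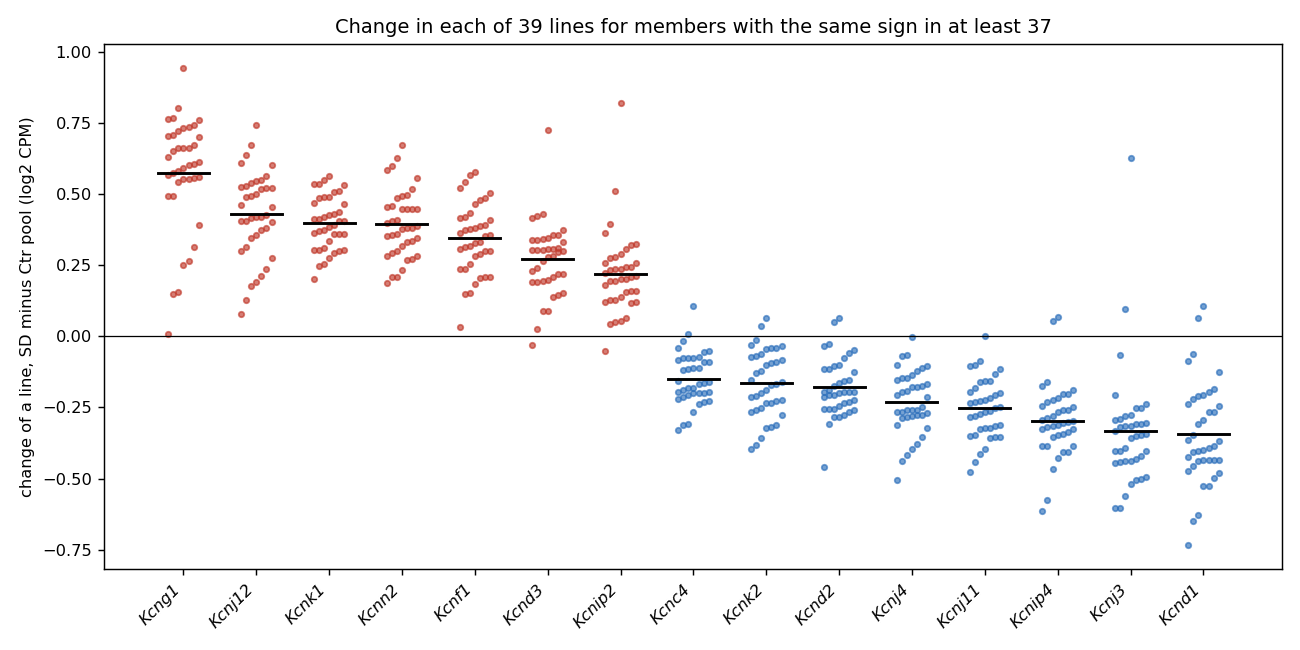
Change of each line, SD pool minus Ctr pool in log2 CPM (y axis), for 15 of the 17 members whose call had the same sign in at least 37 of 39 lines (x axis); each point is 1 line and the black bar is the mean over 39 lines. Kcng1, Kcnj12, Kcnk1, Kcnn2 and Kcnf1 lie above 0 and Kcnj4 and Kcnj11 below 0 in all 39 lines; the highest point of Kcnj3 and Kcnd3 is BXD90, and that of Kcnip2 is BXD56.

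KCNQ genes carry the M-current, a slow brake on repetitive firing. Kcnq5 fell by 0.21 on the log2 scale, with 3 of 39 lines higher in SD. Kcnq3 differed by -0.02 ± 0.060 (adjusted p = 0.73), and the changes of single lines spread from -0.52 to 1.68, the latter in BXD90. Among the 7 ether-a-go-go genes (Kcnh), a family that includes the ERG channels, none rose and 5 fell. Their log2 fold changes ran from -0.26 (Kcnh6) to -0.11 (Kcnh3), and Kcnh6 held a mean of under 100 reads per library. The calls of Kcnh5 (-0.16) and Kcnh7 (-0.19) were lost with the 33 BXD/RwwJ lines alone.

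Kv1 and Kv3 genes, which serve axons and fast-spiking cells, mostly had small differences. Of 6 Kcna genes 2 rose and 1 fell. That with the largest change, Kcna5 (0.52 ± 0.10, adjusted p = 4.3e-06), rested on a mean of 43.8 reads per library and was higher in 32 of 39 lines. Kcna1 rose by 0.09 (a call also lost with quantile normalization), Kcna4 fell by 0.10 on the log2 scale, and the leading gene Kcna2 differed by -0.04 ± 0.030 (adjusted p = 0.26). Kcnc4 (Kv3.4) fell. Its Ctr values lay between 6.12 and 6.68 (median 6.48) and its SD values between 6.10 and 6.56 (median 6.31). The log2 fold change was -0.15 ± 0.022 (adjusted p = 1.1e-08), and 37 of 39 lines were lower in SD. Kcnc2 (Kv3.2), the called member closest to 0, rose by 0.07 ± 0.029 in 34 of 39 lines (adjusted p = 0.020), a call that quantile normalization removed. Kcnc1 (Kv3.1) was not called. The other 2 called members nearest 0 were Kcnab2 (-0.08 ± 0.017, adjusted p = 5.7e-05) and Kcnt1, a sodium-activated channel gene (-0.08 ± 0.020, adjusted p = 1.7e-04).

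Calls of inward rectifiers went both ways. Within the classical Kir2 channels, which fix the resting potential, Kcnj12 (Kir2.2) rose while Kcnj4 (Kir2.3) and Kcnj2 (Kir2.1) fell. Kcnj12 ran from 3.84 to 4.58 log2 CPM in Ctr (median 4.13) and from 4.38 to 4.81 in SD (median 4.57). It was higher in 39 of 39 lines, by 0.43 ± 0.027 (adjusted p = 2.2e-25), a gain of 34.6%. Kcnj4 lay between 6.68 and 7.20 in Ctr (median 6.95) and between 6.51 and 6.87 in SD (median 6.71). All 39 lines were lower in SD, and the log2 fold change was -0.23 ± 0.021 (adjusted p = 9.6e-17). For Kcnj2 it was -0.14 (adjusted p = 6.8e-04).

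The GIRK genes encode the channels through which adenosine, GABA and monoamine receptors hyperpolarize neurons. Kcnj3 (GIRK1) went from a median of 6.19 log2 CPM (5.21 to 6.45) in Ctr to 5.83 (5.58 to 6.10) in SD. It fell in 37 of 39 lines, with a log2 fold change of -0.33 ± 0.039 (adjusted p = 4.1e-12), and BXD90, where Ctr held the lowest of the 39 values, rose by 0.63. Left out, BXD90 takes the log2 fold change to -0.36. Kcnj9 (GIRK3) fell by 0.09 on the log2 scale and Kcnj5 (GIRK4) by 0.40, the latter at a mean of 12.7 reads per library. Kcnj6 (GIRK2) moved the other way and rose by 0.26 in 36 of 39 lines (adjusted p = 3.7e-08).

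ATP-sensitive channels, which tie excitability to the energy state, are built from Kcnj11 (Kir6.2) and Abcc8 (SUR1) in neurons. Kcnj11 ran from 5.29 to 6.33 log2 CPM in Ctr (median 6.08) and from 4.94 to 6.02 in SD (median 5.78). The groups overlapped widely, yet the SD pool was below the Ctr pool in 39 of 39 lines. Its log2 fold change was -0.25 ± 0.074 (adjusted p = 0.0018), and its adjusted p was 1.9e-18 with line as a block, which removes the level of each line (1.9e-18 to 0.0046 among the alternatives). Abcc8 fell with it, by 0.32 on the log2 scale in 37 of 39 lines (adjusted p = 3.0e-11). Of the vascular pair, Abcc9 (SUR2) rose by 0.30 in 37 of 39 lines, whereas Kcnj8 (Kir6.1) differed by 0.055 ± 0.054 (adjusted p = 0.365). The glial genes Kcnj10 (Kir4.1) and Kcnj16 (Kir5.1) showed differences of 0.00 ± 0.048 and 0.08 ± 0.0425 and were not called. Kcnj13 (Kir7.1), known from choroid plexus epithelium, had the widest line changes of the 80 genes, from -1.98 to 1.84 at a mean of 30.4 reads. The summed level of 4 choroid plexus markers (Ttr, Clic6, Kl and Sostdc1) ran from 7.53 to 238 CPM over the Ctr pools and from 6.66 to 410 CPM over the SD pools, so that both groups hold pools with high and low levels, and its part in the values of Kcnj13 was not tested.

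Genes of the two-pore class, which encode background potassium channels, gave 5 of the 22 rises. Kcnk1 (TWIK1) had the most even rise of all. Its Ctr values lay between 6.35 and 6.75 log2 CPM (median 6.46) and its SD values between 6.64 and 7.02 (median 6.86), so the groups overlapped only at their edges. Every line rose, by 0.20 to 0.56, and the log2 fold change was 0.40 ± 0.020 (adjusted p = 1.9e-31). Kcnk13 (THIK1, known from microglia) rose by 0.41 in 35 lines at a mean of 145 reads. Further rises were those of Kcnk12 (0.24), Kcnk3 (TASK1, 0.21) and Kcnk4 (TRAAK, 0.17). Kcnk2 (TREK1), opened by stretch and lipids, was the only two-pore gene that fell. It went from a median of 5.89 (5.53 to 6.07) to 5.69 (5.53 to 5.96), a log2 fold change of -0.17 ± 0.024 (adjusted p = 3.4e-09), with 37 of 39 lines lower. Of 4 microglial markers 1 rose (Tmem119), 2 fell (P2ry12 and Cx3cr1) and 1 was not called. Their summed level was 170 to 264 CPM in Ctr and 162 to 254 CPM in SD, and its part in the rise of Kcnk13 was not tested.

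SK channels bring about the pause after a spike when calcium has entered. Of their 3 genes Kcnn2 (SK2) rose, from a median of 5.26 log2 CPM (4.96 to 5.48) in Ctr to 5.62 (5.38 to 5.87) in SD. It was higher in 39 of 39 lines, by 0.39 ± 0.027 (adjusted p = 8.8e-23), while Kcnn1 and Kcnn3 were not called. Kcnma1, the pore of the BK channel, differed by -0.02 ± 0.047 (adjusted p = 0.70), and none of its 3 beta subunit genes was called. The sodium-activated genes Kcnt1 and Kcnt2 both fell, by 0.08 and 0.17 on the log2 scale. Of the noncoding transcripts, Kcnd3os rose by 0.24 (adjusted p = 4.4e-04) next to the rise of Kcnd3; it held a mean of 34.8 reads per library, and reads were counted by strand. Kcnq1ot1 differed by 0.03 (adjusted p = 0.56).

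The 32 members that were not called had log2 fold changes between -0.20 (Kcnj13) and 0.16 (Kcnq1), and 11 of them held fewer than 100 reads per library on average. With line as a block the number of called members was 53 of 80, against 11359 of all 14896 genes. The block added 5 members, Kcnj14, Kcnj16, Kcnn3 and Kcns3 among them (blocked adjusted p between 9.7e-04 and 0.035), and no call was lost. Without BXD90, 22 members were called higher and 28 lower, Kcnk9 and Kcnn3 being added. The share of all genes called without BXD90 is not given here.

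The same sign in all 39 lines was found for 8 members, Kcng1, Kcnn2 and Kcnj11 among them, and of the 8 Kcnj12, Kcnk1, Kcnf1 and Kcnj4 matched a RefSeq promoter (GRCm38.p6). The 250 bases before the start of these 4 are shown, since they belong to genes that moved one way in all lines. Each matched NCBIM37 (mm9) once. Capitals mark letters of 4 motifs searched on both strands, the core of the cAMP response element (TGACG), the E-box (CACGTG), the GC box (GGGCGG) and the TATA box (TATAAA).
Kcnj12 (rose; chr11:60879056-60879305, plus strand, inside the annotated gene): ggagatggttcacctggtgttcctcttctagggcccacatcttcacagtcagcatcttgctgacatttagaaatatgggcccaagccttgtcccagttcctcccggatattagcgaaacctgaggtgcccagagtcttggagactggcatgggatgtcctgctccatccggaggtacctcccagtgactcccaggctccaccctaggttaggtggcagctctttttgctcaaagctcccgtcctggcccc
Kcnk1 (rose; chr8:128518752-128519001, plus strand): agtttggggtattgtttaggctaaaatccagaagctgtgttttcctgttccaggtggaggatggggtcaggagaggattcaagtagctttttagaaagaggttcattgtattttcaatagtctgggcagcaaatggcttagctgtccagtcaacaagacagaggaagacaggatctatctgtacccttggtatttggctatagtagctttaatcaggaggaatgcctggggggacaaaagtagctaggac
Kcnf1 (rose; chr12:17183695-17183944, minus strand): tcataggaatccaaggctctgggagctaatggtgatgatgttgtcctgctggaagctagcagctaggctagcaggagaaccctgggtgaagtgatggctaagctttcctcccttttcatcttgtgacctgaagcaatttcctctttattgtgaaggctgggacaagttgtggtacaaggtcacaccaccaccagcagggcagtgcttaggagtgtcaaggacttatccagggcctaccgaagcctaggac
Kcnj4 (fell; chr15:79335672-79335921, minus strand): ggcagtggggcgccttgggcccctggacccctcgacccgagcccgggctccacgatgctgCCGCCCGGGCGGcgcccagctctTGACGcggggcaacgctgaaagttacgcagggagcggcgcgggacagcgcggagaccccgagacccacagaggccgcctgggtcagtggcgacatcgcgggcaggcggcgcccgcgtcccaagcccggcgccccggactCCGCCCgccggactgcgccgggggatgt
The window of Kcnj4 is 77.2% G and C and holds 3 GC boxes, starting 190, 184 and 28 bases before the start, and 1 response element core at 167 bases. None of the 4 motifs is in the windows of Kcnj12, Kcnk1 and Kcnf1, which are 56.0%, 44.4% and 51.2% G and C. Over the 57 members with a promoter, 61.4% had a GC box, against 32.7% of all 32851 promoters. A GC box was in 6 of 15 members that rose and 12 of 17 that fell. The share over promoters of genes listed in cortex alone was not taken, so expression is not matched in these comparisons. The response element core was found in 22.8% of members and 17.8% of all promoters, in 1 of 15 members that rose and 5 of 17 that fell. An E-box was in 7.02% of members (6.02% of all promoters) and a TATA box in 5.26% (12.4%). No marked site overlaps another, and these are letters in a window, with no measurement of binding.

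How far lines differ in the level of a channel was tested with the strain terms of a model of condition and strain, in which the Ctr and SD pools of a strain stand for its repeats. Of the 80 members 53 passed (66.3%), against 55.5% of all genes. The standard deviation between the 37 strain means in Ctr had a median of 0.18 over the members and 0.14 over all genes, on the log2 scale. The share called was 77.8% in the voltage-gated (21 of 27) and modifier (7 of 9) classes and 76.9% in the inward rectifiers (10 of 13). It was 66.7% in the auxiliary (8 of 12), 42.9% in the calcium- or sodium-activated (3 of 7) and 40.0% in the two-pore genes (4 of 10). Read depth moves with these counts, as 6 of 17 members under 100 reads and 28 of 34 over 1000 reads were called. Its part was not tested.

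Kcnj11 gave the clearest line pattern. The gene lies on chr7:53352533-53355607 (mm9, minus strand). In Ctr the C57BL/6J pools were at 6.17 and 6.11 log2 CPM, the DBA/2J pools at 5.51 and 5.47, and the F1 pools between them at 5.78 and 5.76. Of the 33 BXD lines 11 lay below the F1 pools, at 5.29 to 5.54, and 22 above, at 5.99 to 6.33, with none between. In SD the same 11 lines lay below the F1 pools (4.94 to 5.42) and the other 22 above (5.69 to 6.02). Strains thus differed in both conditions in the same order of groups, with a standard deviation between strains of 0.35 in Ctr and 0.32 in SD (strain F test, adjusted p = 2.7e-24). DBA/2J was below C57BL/6J by a log2 difference of -0.64 ± 0.052 (adjusted p = 1.2e-14). The neighbouring gene Abcc8 is separated by 4286 bases and codes for the other subunit of the same channel. There DBA/2J was higher, at 6.39 and 6.41 log2 CPM against 6.07 and 6.06 in C57BL/6J (0.28 ± 0.068 over both conditions, adjusted p = 0.0011), so the parental differences of the pair had opposite signs. Lines taken as related, which the labels do not state, need not match. BXD65 was at 5.54 and BXD97 at 6.03, and BXD48 was at 5.53 and BXD96 at 6.13. The pair BXD73 and BXD103 were both at 5.29.

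**Figure D4:**
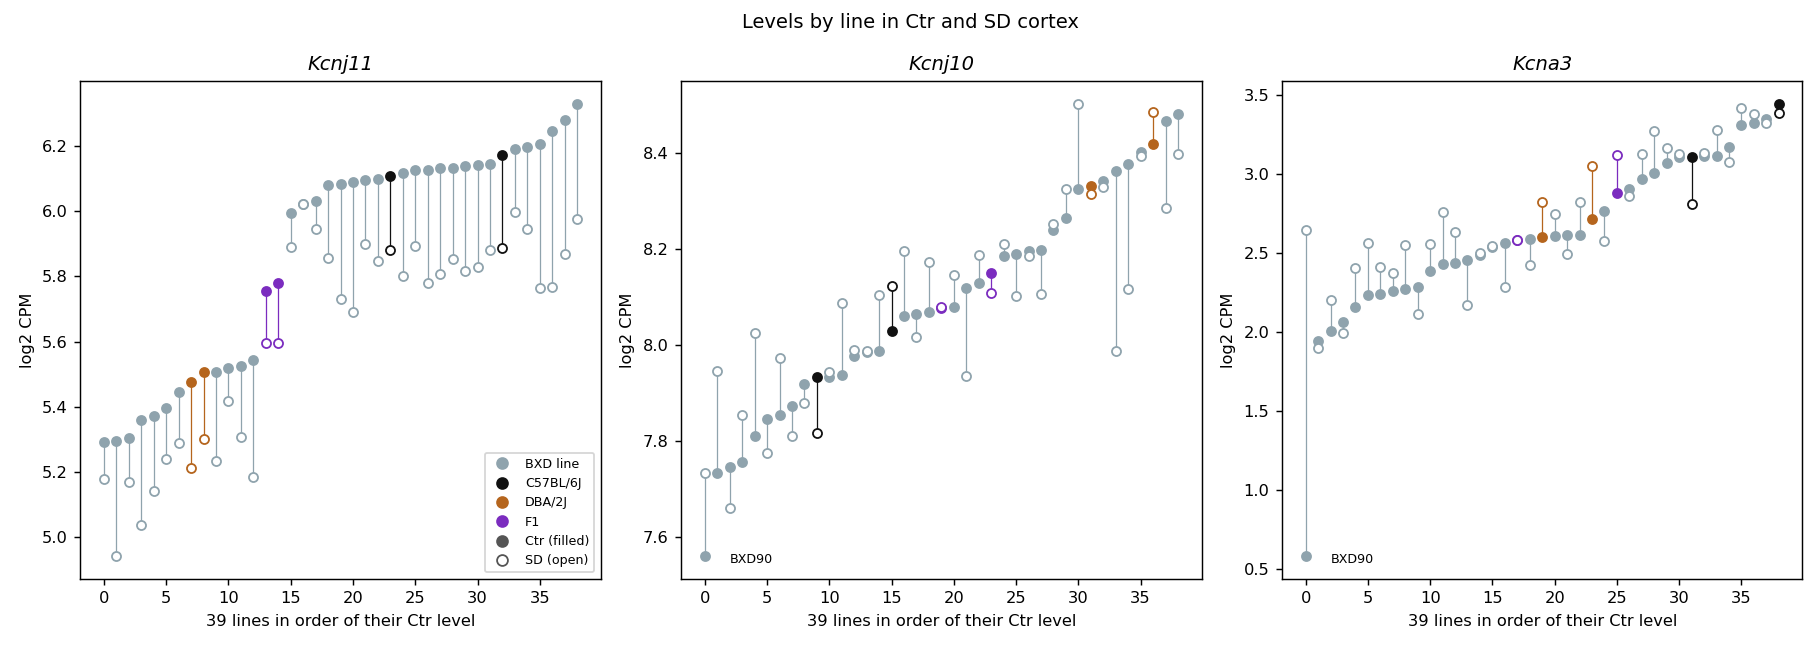
Levels of Kcnj11, Kcnj10 and Kcna3 in log2 CPM (y axis) in the 39 lines, in order of their Ctr level (x axis); filled points are Ctr pools, open points SD pools, and a line joins the pair. For Kcnj11 the lines form a low group with DBA/2J and a high group with C57BL/6J, the F1 pools lie between, and all SD points are below their Ctr points; the Ctr pool of BXD90 is the lowest for Kcnj10 and Kcna3.

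Among called members with at least 50 reads, the other largest spreads between strains were those of Kcna3, Kcng4, Kcnh5, Kcnq3, Kcng1, Kcnb2 and Kcnj8. Kcna3 (Kv1.3, known from immune cells and microglia) ran in Ctr from 0.58 to 3.44 log2 CPM with a median of 2.60. The lowest was BXD90, and the second lowest was at 1.95. In SD the values lay between 1.90 and 3.42, and BXD90, at 2.64, stood in the middle. The standard deviation between strains in Ctr was 0.52 with BXD90 and 0.40 without it (adjusted p = 3.6e-08 with it). Kcng1 ranged from 2.71 to 3.83 in Ctr with a standard deviation of 0.28 between strains (adjusted p = 1.4e-07), and Kcng4 from 2.79 to 4.32 with 0.35 (adjusted p = 2.6e-05). Without BXD90 these were 0.28 and 0.35. Kcnj8, at 84.6 reads per library, ranged from 1.25 to 2.34 with 0.25 (adjusted p = 0.040).

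For Kcnq3, Kcnh5 and Kcnb2 the spread rested in part on BXD90. Kcnq3 lay between 3.87 (BXD90) and 5.69 log2 CPM in Ctr, with the second lowest, BXD56, at 4.55, and the standard deviation between strains was 0.33 with and 0.22 without BXD90. In SD, where BXD90 was at 5.55, it was 0.20. Kcnh5 (Eag2) was lowest in BXD90 as well, at 3.65 against 4.19 in the next line, and its standard deviation was 0.34 with and 0.28 without it. Kcnb2 held 2.99 in BXD90 and 3.05 in BXD56, and gave 0.25 with and 0.22 without BXD90. Over the 80 members the standard deviation between strains in Ctr was more than 1.5 times as large with BXD90 as without it in 4, most in Kcnk9 (1.69 times). The others were Kcng3, Kcnh7 and Kcnma1. Without BXD90, 59 members were called for strain differences against 61.2% of all genes. Kcnh7, Kcnk3, Kcnk9, Kcnma1, Kcnn1, Kcnt2 and Kcnv1 were gained, Kcnj2 was lost, and the median standard deviation was 0.16.

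**Figure D5:**
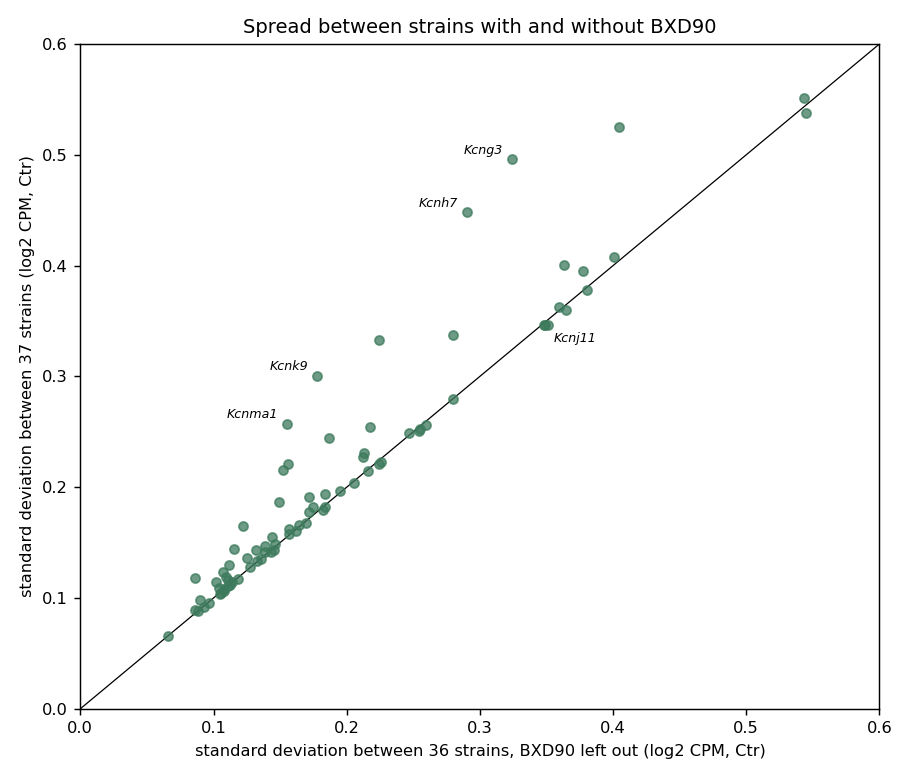
Standard deviation between strains in Ctr cortex of the 80 members in log2 CPM, with all 37 strains (y axis) and without BXD90 (x axis); each point is 1 gene and the line marks equality. The 4 named genes above the line had a spread more than 1.5 times as large with BXD90, while Kcnj11 lies on the line.

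Between the parental strains 13 of the 80 members differed, against 26.8% of all genes. With Kcnj11, lower levels in DBA/2J were found for Kcnf1 (-0.40 ± 0.061), Kcnu1 (-0.41) and Kcns3 (-0.29). Higher levels in DBA/2J were found for Kcnab3 (0.43 ± 0.067), Kcnj10 (0.41 ± 0.063), Kcnd1 (0.34), Kcnc2 (0.23), Kcnj16 (0.23), Kcnh1 (0.15) and Kcnj5 (0.93, at 12.7 reads). Kcnj10 was at 8.42 and 8.33 log2 CPM in the DBA/2J Ctr pools, 8.03 and 7.93 in C57BL/6J and 8.15 and 8.08 in the F1 pools. Kcnj9, which lies 11947 bases from Kcnj10 on chromosome 1, differed by 0.00 (adjusted p = 0.98). The contrast rests on 4 pools of each parent, and fitted on these 8 pools alone it called 19 members, and 23 with the collection as a block. Without the second C57BL/6J collection 9 members were called, and the calls of Kcnj5, Kcnj16, Kcns3 and Kcnu1 were lost; Kcnh1 was lost without the first.

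Among the 77 members with a position in the mm9 annotation, 12 pairs lay within 1000000 bases of each other, and 1 had both genes called in SD, Kcna5 and Kcna1 on chromosome 6, and both rose. Kcna6, the other gene of that cluster, differed by -0.03 (adjusted p = 0.16). Kcnd3os, which has no position there, shares its symbol with Kcnd3 and is not among these pairs, and both rose.

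The genes that accompany these channels were followed in a list of 22, of which 20 were listed in cortex. Of the 20, 3 rose, 9 fell and 8 were not called, while 33.0% of all genes rose and 35.4% fell. The median log2 fold change was -0.0097 over the 20 and -0.0097 over all genes. Apart from those named, Hcn4, a cation channel gene of the same superfamily, fell by 0.21 on the log2 scale. Adam23 and Adam22, receptors of Lgi1 at Kv1 channels, fell by 0.34 and 0.15, while Lgi1 itself rose by 0.050 in 28 of 39 lines (adjusted p = 0.030). Of the 3 calmodulin genes none was called. Markers of neurons were abundant, with a summed level over 5 genes of 6520 to 7453 CPM in Ctr and 6301 to 7215 in SD; of these, 3 fell (Syt1, Rbfox3 and Stmn2) by at most 0.16 on the log2 scale and 2 were not called. Of 5 markers of excitatory neurons 2 rose, Neurod6 (0.38) among them, 2 fell (Tbr1 and Slc17a7) and 1 was not called, with a summed level of 5485 to 6816 CPM in Ctr and 5569 to 6986 in SD. Of 6 markers of inhibitory neurons 2 rose (Vip by 0.33 and Gad2 by 0.08) and 4 were not called, at 828 to 1019.6 CPM in Ctr and 857 to 1076 in SD. Among glia, 2 of 5 astrocyte markers rose (Aldh1l1 by 0.12 and Slc1a3 by 0.05) and none fell, at 996 to 1651 CPM in Ctr and 1068 to 1362 in SD. The 5 oligodendrocyte markers had 1 rise (Mobp) and 2 falls (Mog and Mag), at 2254 to 3909.8 CPM in Ctr and 2135 to 3954 in SD, and of 2 markers of their precursors 1 fell (Pdgfra). Of 5 striatal markers 2 rose, and their summed level ran from 127 to 346 CPM in Ctr and from 140 to 300.1 CPM in SD. Of 4 mural markers 2 fell and of 4 endothelial markers 2 rose and 1 fell. Their part in the changes of the channel genes was not tested.

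Whether the response was that of cortex alone was asked of the 30 members listed in liver, where most are scarce (median 1.35 log2 CPM in Ctr against 4.96 in cortex). In liver 9 of them were called, 3 higher and 6 lower in SD, against 44.2% of all genes in liver. With line as a block 14 of the 30 were called, and the share of all liver genes called with the block is not given. The change in liver differed from that in cortex for 19 of the 30, against 57.6% of the genes listed in both tissues, and for 12 when the pairing of the pools was left out. Kcne4, an auxiliary subunit that suppresses KCNQ1 and other Kv channels, was the 1 member called in opposite directions. In cortex it went from 0.35 ± 0.40 to 0.70 ± 0.34 log2 CPM and rose in 32 of 39 lines (0.35 ± 0.083, adjusted p = 1.4e-04). In liver the log2 fold change was -0.35 ± 0.14 (adjusted p = 0.036), and the difference between the tissues was -0.70 (adjusted p = 1.8e-04). Kcnn2 rose in both tissues, by 0.18 in liver (adjusted p = 2.7e-06), and Kcnab2, Kcnab3 and Kcnq5 fell in both. Kcnk5 (TASK2), at 6.69 log2 CPM in liver and -0.32 in cortex, rose in liver by 0.30 (adjusted p = 4.7e-04) and was not called in cortex. Kcnk1, which rose in each line in cortex, had a log2 fold change of -0.41 ± 0.25 in liver (adjusted p = 0.18, and 0.023 with line as a block), and the difference between the tissues was -0.81 (adjusted p = 2.9e-05).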

How the data were processed

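RNA-seq of cortex and liver from pooled mice was analysed, 39 pools per condition and tissue; 4 BXD/TyJ lines entered only an alternative. Groups were taken from the labels. The tables deposited by the authors hold log2 CPM. To make them, the authors mapped single-end reads of stranded libraries to mm9 (STAR), counted them per RefSeq gene by strand (htseq-count), removed genes with a low mean count, and scaled the counts by TMM in edgeR before taking logarithms. The submitters' processing notes of the authors name FastQC, STAR, HTSeq and edgeR without versions. No column of the 4 tables was left unmapped. Since the deposited log2 CPM gave back whole reads (100% of values within 0.02 of a read), depth and reads per gene are known; they cover counting error only.

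SD and Ctr pools were compared with limma 3.58.1 in R 4.3.3 (lmFit, eBayes with a variance trend, two-sided), with Benjamini-Hochberg adjustment over 14896 genes in cortex and 14107 in liver, at an adjusted p under 0.05. Voom, named by the methods, was an alternative. Strain terms (37 strains) and the DBA/2J minus C57BL/6J contrast came from 1 model of condition and strain. The difference between tissues was fitted on the change per line (12695 genes, eBayes without a trend). Pools of a line resembled each other (correlation of deviations from the condition mean at least 0.299 in cortex, median 0.614, and at least 0.169 in liver, median 0.475), so line as a block was compared. Changes are on the log2 scale with a prior count near 1, which understates those of low genes. The steps were tested on simulated data. For the SD response these were drawn without a line effect, so that test does not cover pools of a line that resemble each other.

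Gene positions and exon lengths are those of GENCODE vM1 on NCBIM37 (77 of 80 members); Kcnb2 has 2 entries there and was left without. Classes follow the symbol. Fully described are called members with the same sign in at least 37 of 39 lines (at most 10 per direction), the 8 with the largest spread between strains among those called with at least 50 reads, the 5 highest per kb, the 3 called members nearest 0, and those called in opposite directions in liver. Results of a few of these are not reported here. Other members were named after their values were seen, to give the ends of a range, a subunit partner or a called parental difference, and tissue differences of at least 0.5 likewise. The members, lists and tests were chosen with earlier results of these data known. Removal of BXD90 was chosen after seeing the data. Other alternatives were eBayes without a trend, median centring, quantile normalization, log2(CPM + 1), dropping genes whose mean was under 0 log2 CPM, adding the BXD/TyJ lines (43 pools), keeping the 33 BXD/RwwJ lines only, averaged parental pools, and leaving out BXD79, BXD85 and BXD101 or single parental collections.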

Additional observations from a re-analysis of the deposited data

Results flagged for a closer look

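In all, 7 members had a response to SD in liver that differed from that in cortex by at least 0.5 on the log2 scale, by limma on the change in liver minus that in cortex of 39 lines. Kcnk1, the two-pore gene with the even rise in cortex, gave the largest difference, -0.81 (adjusted p = 2.9e-05). For Kcne4, which rose in cortex and fell in liver, it was -0.70 (adjusted p = 1.8e-04). Kcnab3, a Kv1 beta subunit, fell in both tissues and more in liver, with a difference of -0.68 (adjusted p = 1.7e-05). Kcnip3, a KChIP gene, had -0.56 (adjusted p = 4.5e-04), and Kcna2, the most abundant channel gene per kb in cortex, -0.54 (adjusted p = 3.3e-04). Kcnd3 had -0.52 (adjusted p = 0.037). The 1 positive difference was that of Kcnma1, the BK channel gene, with 0.54 (adjusted p = 0.0089): its log2 fold change was 0.52 in liver (adjusted p = 0.028) and -0.02 in cortex. Why the tissues differ was not tested.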

How the results depend on the processing

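Members called higher in SD numbered 21 to 24 and lower 23 to 32 over 13 alternatives, and none of the calls reversed. The 17 genes with the same sign in at least 37 lines and Kcne4, Kcnab2 and Kcnt1 stayed called in every alternative, while Kcnc2 was lost with quantile normalization. Median centring moved the median of all genes by -0.0042 on the log2 scale. With line as a replicate block 24 members were called higher and 29 lower, and the block changed no call in cortex other than the 5 added. Of all 14896 genes 11359 were called with this block. Members called for strain differences numbered 49 to 60 over 7 alternatives; Kcnq3 was lost with eBayes without a trend and with the 33 BXD/RwwJ lines alone, Kcnb2 with the former and Kcnj8 with all 43 pools. For DBA/2J against C57BL/6J the number of called members was 13, but 23 with collection as a replicate block on parental pools alone, and leaving out 1 collection gave 9 to 13, with Kcnj5, Kcnh1, Kcnj16, Kcns3 and Kcnu1 among those lost. In liver 14 members were called with line as a replicate block, against 9, Kcnk1 (-0.41) among them. Without the pairing of the pools 12 tissue differences were called, against 19. The cause of these shifts was not tested. Depth limits the 17 members under 100 reads, for which the median SE of the response was 0.081 against 0.027 for members over 1000 reads.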
